A study of Rattus norvegicus with 8 samples.

Results

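The vascular genes described here were 9 genes that mark endothelial cells (Emcn, Pecam1, Vwf, Cldn5, Cdh5, Kdr, Flt1, Tek and Tie1) and 1 gene of the vascular basement membrane (Col4a1), each read by every array probe that carries its name, 10 of the 11564 genes that the array's probes could be matched to. Of the 15207 probes that are not controls, 14 carried 1 of these names in the files, and a 15th, filed under the older symbol Pecam, was assigned to Pecam1 through its accession. The 15 probes held 13 different sequences, because Cldn5 and Kdr were each read by the same sequence at 2 spots. A total of 13 probes of 9 genes, with 11 sequences, were bright enough to be tested; the only probe of Pecam1 and 1 of the 2 probes of Vwf were not.

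Endothelial cells line the vessels of the brain and, sealed by tight junctions, form the blood-brain barrier. Claudins such as Cldn5 and the adherens junction protein Cdh5 join neighbouring cells, Pecam1 and the sialomucin Emcn sit on the cell surface, and the cells store and release the clotting protein Vwf. Kdr and Flt1 are receptors for vascular endothelial growth factors, and Tek, the angiopoietin receptor, works with its relative Tie1. The cells rest on a basement membrane whose main network is collagen IV, in which Col4a1 chains pair with Col4a2.

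The study measured RNA of the whole hippocampus of rats at 2 months of age on single-colour arrays. The 4 control samples came from rats given vehicle, a 5% sucrose solution, as pups, and the 4 PNFLX samples from rats given fluoxetine, a serotonin reuptake inhibitor, at 10 mg/kg. By the protocol both treatments ran from postnatal day 2 to day 21, whereas the sample descriptions give last days that run from 21 to 28 in sample order; the protocol was followed. The labels do not say whether samples of a group came from separate animals, so the p-values measure the spread between these samples, which may be technical. The labels name no strain and no sex.

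All 8 arrays lay on 1 slide and were read in 1 scan. Controls filled row 1 of this slide and PNFLX row 2, and which of the row and the treatment set a difference cannot be told apart. The 75th percentile of the processed signal lay between 654 and 941, between 70.5% and 77.9% of probes exceeded background well, by the flag in the files, and the correlations between arrays lay between 0.948 and 0.983. All 13 neuronal marker genes on the array were measured, 12 of them well above background on all 8 arrays, and of the 9 endothelial marker genes 8 were measured, 5 of them on all 8 arrays. Pecam1, a defining endothelial marker, passed that flag on only 2 arrays, control 1 and PNFLX 2. In RNA of a whole tissue, a change in the number of cells of a type and a change in RNA per cell cannot be told apart.

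Each array carried 192 rows of spots, and the row of a probe is given with its name. The sequences of the probes on which the results turn are printed from the deposited files in lower case, with no part marked by capitals. Emcn is shown because it was the only member that passed the test, Cldn5 because identical sequences gave different values, Vwf and Cdh5 because 2 different sequences read each gene, and Col4a1 because its groups did not overlap. The files place them on the rat build rn4; the strand was not used, and no annotation of exons or untranslated regions of that build was used here.
Emcn row 1: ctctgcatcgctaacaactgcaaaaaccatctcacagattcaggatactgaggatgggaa
Vwf row 93: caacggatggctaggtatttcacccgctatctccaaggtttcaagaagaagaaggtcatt
Vwf row 186: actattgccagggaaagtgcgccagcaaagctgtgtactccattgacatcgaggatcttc
Cldn5 rows 62 and 116: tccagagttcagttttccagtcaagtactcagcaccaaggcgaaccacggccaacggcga
Cdh5 row 15: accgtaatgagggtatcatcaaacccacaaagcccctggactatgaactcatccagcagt
Cdh5 row 31: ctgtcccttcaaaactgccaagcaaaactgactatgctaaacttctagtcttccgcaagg
Col4a1 row 51: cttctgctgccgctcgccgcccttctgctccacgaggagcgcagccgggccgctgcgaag

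The Emcn probe, of the transcript NM_001004228, lies at chr2:234944994-234945289, a span of 296 bases for a probe of 60. The span of the Vwf probe of row 186, chr4:162098933-162099422, is likewise longer than the probe, at 490 bases, and so is that of the Cdh5 probe of row 15, chr19:788852-790286, at 1435 bases. The Vwf probe of row 93 lies at chr4:162054469-162054528 and the Cdh5 probe of row 31 at chr19:779103-779162, each as 1 block of 60 bases. Both Cldn5 spots carry the sequence at chr11random:1224740-1224799, a part of the build not placed on the main chromosome. The Col4a1 probe, at chr16:83031262-83031321, has 73.3% G and C, against 40.0% to 55.0% for the other member probes.

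Fluoxetine-treated and control hippocampi were compared probe by probe on a log2 scale on which 0 is the 75th percentile of the array, with limma over the 11600 probes kept and Benjamini-Hochberg adjusted p-values. Of the 13 vascular probes 1 passed an adjusted p of 0.05, Emcn, which was higher in PNFLX; over all probes 78 passed, or 0.672%, 43 of them higher (0.371%) and 35 lower. Without scaling between arrays 120 were higher and 23 lower, and the median of all probes moved from -0.03 to 0.26. The groups did not overlap for 3 of the 13 probes, Emcn, Col4a1 and Cdh5 row 31, all higher in PNFLX, against 10.7% of all probes in either direction and 4.33% with PNFLX higher. The same 3 had an unadjusted p under 0.05, against 12.5% of all probes. Emcn and Cdh5 row 31 each exceeded background on only 1 control array and were kept for the test through the PNFLX arrays, where they were higher, so nothing is read from these counts. Of the 13 probes 5 had a log2 difference above 0 and 8 below, with a median of -0.07; over all probes 45.5% were above 0 and the median was -0.03. The balance of the 13 depended on the scaling and on single samples: 11 were above 0 without scaling between arrays and 8 without PNFLX 4. Thus 12 of the 13 vascular probes, covering Vwf, Cldn5, Cdh5, Kdr, Flt1, Tek, Tie1 and Col4a1, did not pass the test. After the row and column medians of each array were subtracted 0 of the 13 passed, against 0.259% of all probes.

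**Figure D1:**
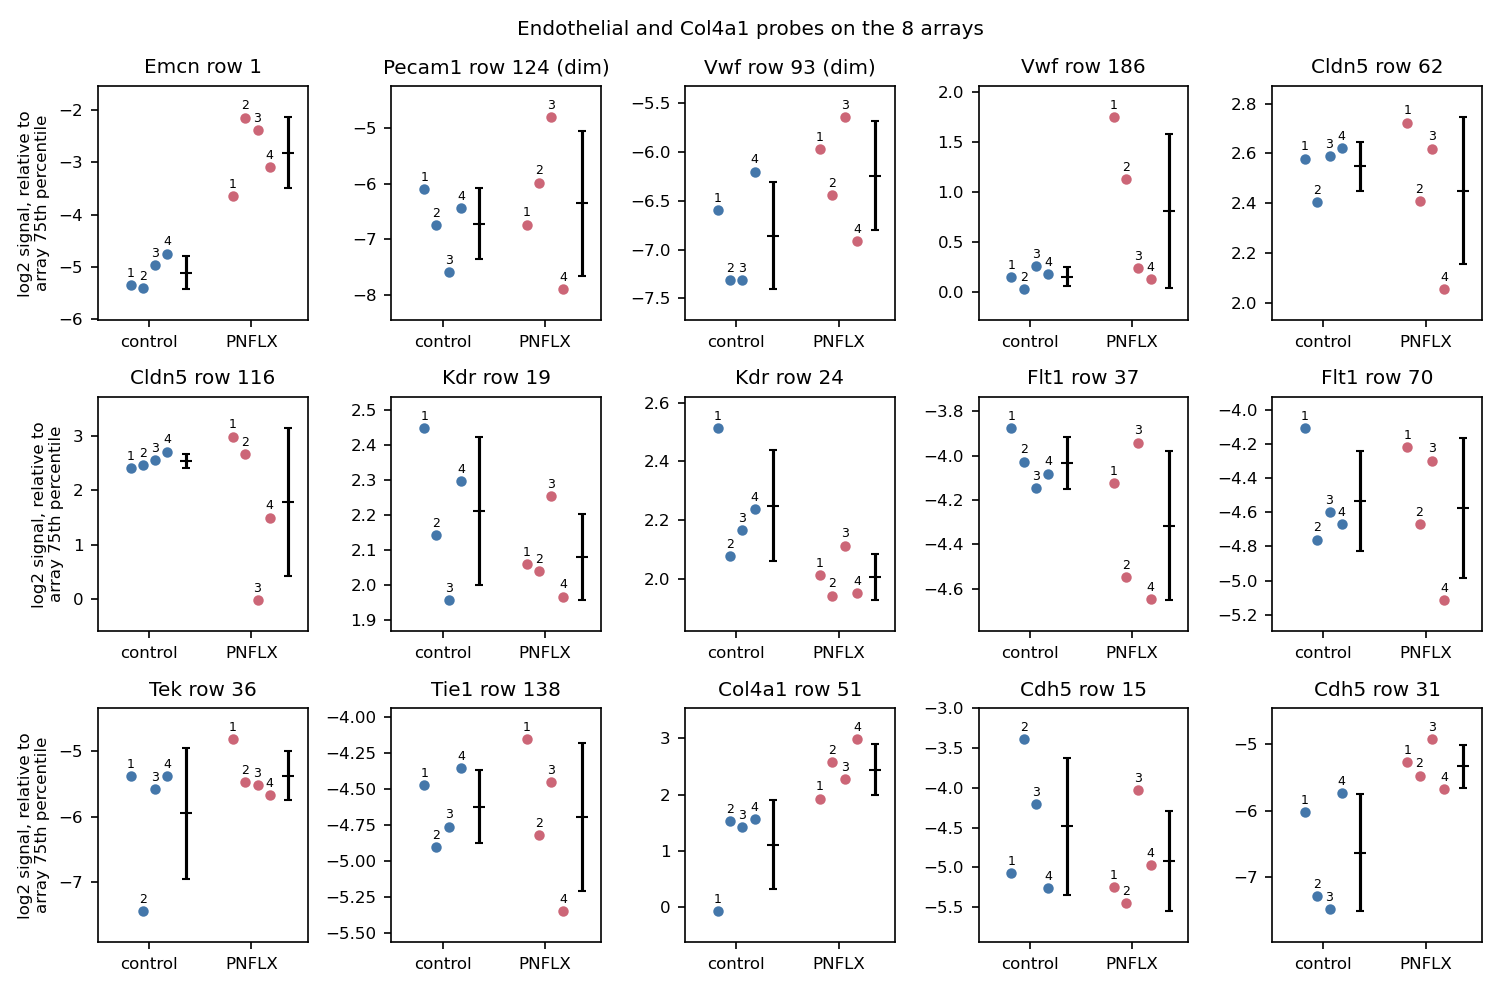
Log2 of the processed signal relative to the 75th percentile of each array (vertical axis, a scale of its own in each panel) for the 15 probes of the 10 genes, with 1 point for each of the 4 control and 4 PNFLX samples and a mark with error bars for the group mean and SD; panels marked dim were not kept for the test. The groups do not overlap for Emcn, Col4a1 and Cdh5 row 31, and PNFLX 3 lies at -0.03 for Cldn5 row 116.

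The difference in Emcn, the sialomucin of the endothelial surface, was the only one among the vascular probes to pass the test, and it was smaller once spot position was taken into account. The log2 level of Emcn was -5.34, -5.40, -4.96 and -4.74 in controls 1 to 4, and -3.64, -2.15, -2.39 and -3.09 in PNFLX 1 to 4. Every PNFLX value was above every control value, and the probe was well above background on 4 of 4 PNFLX arrays but on 1 of 4 control arrays. The group means were -5.11 ± 0.31 (SD, n = 4) in controls and -2.82 ± 0.68 (SD, n = 4) in PNFLX, a log2 difference of 2.30 (SE 0.33, 95% confidence interval 1.53 to 3.06), with a limma adjusted p of 0.0277. The probe was kept for the test only through its PNFLX arrays; in the fit of all 15207 probes, with no filter on dim probes, it did not pass (adjusted p 0.0515). The adjusted p ranged from 0.00977 to 0.473 over 19 alternative settings, and was 0.880 with a model-based background correction (normexp) that could not be fitted properly on control 1. Emcn no longer passed without control 1, 2, 3 or 4 (adjusted p 0.0774, 0.0813, 0.0854 and 0.0782), without PNFLX 2 (0.0709) or without PNFLX 4 (0.0675), and its log2 difference stayed between 2.07 and 2.57 when single samples were left out.

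The Emcn spot sits in row 1, the outermost row. The 157 other kept probes within 2 rows of it had a median log2 difference of 1.08, with 90% of them between -0.31 and 3.43; 28 of them (17.8%) exceeded the value of Emcn and 30 (19.1%) passed the test. Among the 43 of these probes with a control level within 1 log2 unit of that of Emcn, the median difference was 0.85 and 6 exceeded Emcn. The first 5 rows held 267 kept probes with a median difference of 0.75, of which 33 (12.4%) passed, whereas among the 9310 probes of rows 21 to 172 the median was -0.05 and 9 (0.0967%) passed. Identical sequences printed once in the first 5 rows and once in rows 21 to 172 gave a direct measure: over 59 such pairs the median difference was 1.10 at the outer spot and -0.08 at the inner spot, and the outer spot was higher in 52. Emcn has no second spot. After the row and column medians of each array were subtracted, the log2 difference of Emcn was 0.82 (SE 0.39, adjusted p 0.473) and its groups overlapped.

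**Figure D2:**
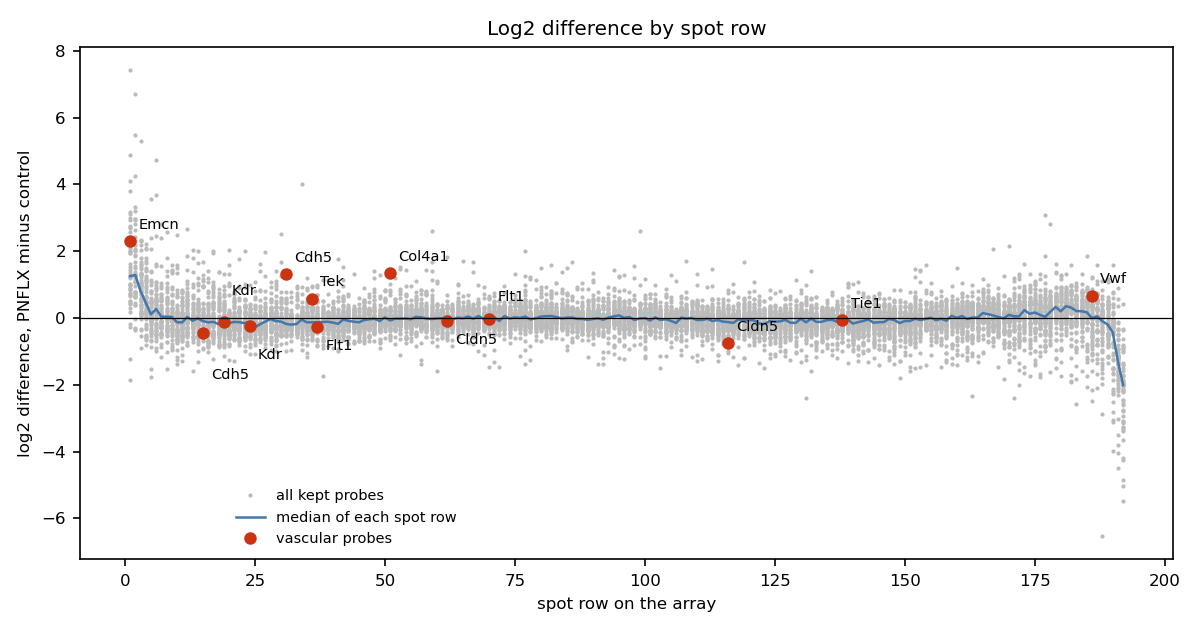
Log2 difference, PNFLX minus control (vertical axis), of all kept probes against spot row from 1 to 192 (horizontal axis), with the vascular probes named. The median is 0.75 in the first 5 rows, where Emcn lies, and -0.79 in the last 5 rows; the other tested vascular probes lie between rows 15 and 186.

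Pecam1, an adhesion molecule of endothelial junctions, was close to the detection limit. Its log2 level was -6.10, -6.75, -7.59 and -6.43 in controls 1 to 4 and -6.74, -5.98, -4.80 and -7.90 in PNFLX 1 to 4, where the value of control 3 is a surrogate that the scanner software set for a low signal. The groups overlapped over most of their range. In the fit of all 15207 probes the log2 difference was 0.36 (SE 0.64, limma adjusted p 0.891), with a 95% confidence interval from -1.11 to 1.84, so neither direction was detectable at this signal.

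The 2 Vwf probes, which read different parts of the gene for the clotting protein of endothelial granules, gave no call. For Vwf row 186 the log2 level was 0.15, 0.03, 0.26 and 0.18 in controls 1 to 4, and 1.75, 1.13, 0.24 and 0.13 in PNFLX 1 to 4. PNFLX 1 and 2 stood above all controls, while PNFLX 3 and 4 lay within the control range. The SD was 0.77 in PNFLX against 0.10 in controls. The mean brightness of the spot, before the scanner software's corrections, was 1212, 1148, 728 and 729 in PNFLX 1 to 4. In controls it was 747 to 1018. The processed signal was 3112, 2064, 1033 and 1022 in PNFLX 1 to 4 and 742 to 916 in controls. The part of these corrections in the values was not tested. The log2 difference was 0.66 (SE 0.35, 95% confidence interval -0.13 to 1.45, limma adjusted p 0.478); it was 0.35 without PNFLX 1 and -0.21 with the normexp correction repaired on control 1. The spots around it, within 2 rows and 5 columns, deviated from their means over the 8 arrays by a median of 0.56 on PNFLX 1, 0.29 on PNFLX 2, 0.16 on PNFLX 3 and -0.45 on PNFLX 4, and after row and column medians were subtracted the difference was 0.60 (adjusted p 0.559). The summed level of the 7 measured blood marker genes, relative to the 75th percentile, was 2.98 in PNFLX 1, against 1.23 to 1.85 in the other PNFLX samples and 1.41 to 1.60 in controls; of these genes 5 were higher and 2 lower in PNFLX, and their part in the Vwf values was not tested. Vwf row 93 passed the background flag on only 2 arrays, control 4 and PNFLX 1, with log2 levels of -6.60, -7.31, -7.31 and -6.21 in controls and -5.97, -6.45, -5.65 and -6.92 in PNFLX. Its groups overlapped, with a log2 difference of 0.61 (SE 0.36, adjusted p 0.628) in the fit of all probes.

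Cldn5, the main claudin of the blood-brain barrier, was bright on every array and did not pass the test at either spot. For Cldn5 row 62 the log2 level was 2.58, 2.40, 2.59 and 2.62 in controls 1 to 4 and 2.72, 2.41, 2.62 and 2.05 in PNFLX 1 to 4. Apart from PNFLX 4, the lowest, all values lay within 2.40 to 2.72. The log2 difference was -0.10 (SE 0.17, limma adjusted p 0.830), with a 95% confidence interval from -0.48 to 0.29. For Cldn5 row 116, which carries the same sequence, the level was 2.42, 2.47, 2.56 and 2.72 in controls 1 to 4 and 3.00, 2.67, -0.03 and 1.49 in PNFLX 1 to 4. Here PNFLX 3 and PNFLX 4 stood below all controls and PNFLX 1 above them. The log2 difference was -0.76 (SE 0.59, adjusted p 0.621), and -0.15 without PNFLX 3.

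Since both Cldn5 spots hold 1 sequence, their gap measures the error of a spot. The row 116 value minus the row 62 value was at most 0.163 in size on the control arrays, but -2.65 on PNFLX 3 and -0.56 on PNFLX 4. Neither spot carried an outlier flag. The spots around row 116 deviated by a median of only -0.13 on PNFLX 3 and -0.10 on PNFLX 4. Of the 1945 pairs of spots with identical sequences on the array, 9.15% had a larger gap on their worst array. With both spots averaged, the Cldn5 difference was -0.43 (SE 0.32, 95% confidence interval -1.17 to 0.31, adjusted p 0.608).

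**Figure D3:**
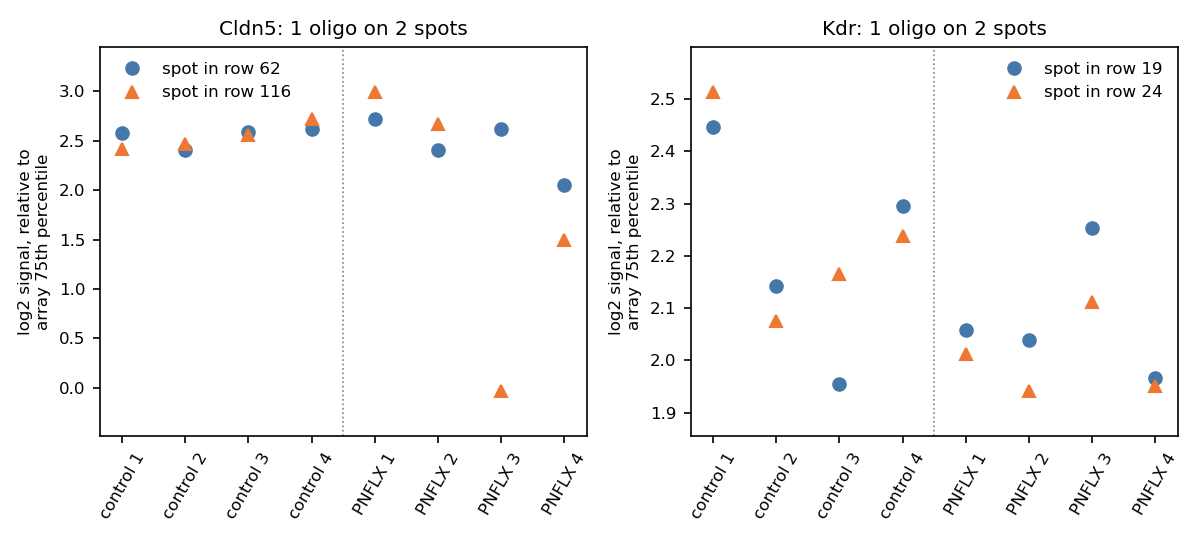
Log2 level of Cldn5 and Kdr on each of the 8 arrays at 2 spots that carry the same sequence, rows 62 and 116 for Cldn5 and rows 19 and 24 for Kdr. The spots of Kdr lie within 0.209 of each other on every array, whereas those of Cldn5 differ by 2.65 on PNFLX 3.

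Cdh5, the cadherin of endothelial junctions, was dim, and neither of its 2 probes passed the test. For Cdh5 row 31 the log2 level was -6.03, -7.30, -7.49 and -5.74 in controls 1 to 4 and -5.27, -5.47, -4.92 and -5.67 in PNFLX 1 to 4. All PNFLX values were above all control values, though PNFLX 4 and control 4 lay close together, and the value of control 3 is a surrogate. The log2 difference was 1.31 (SE 0.41, 95% confidence interval 0.36 to 2.25), with an unadjusted p of 0.0127 and a limma adjusted p of 0.252. The probe was well above background on 1 of 4 control and 3 of 4 PNFLX arrays, just enough to be kept, and mostly through PNFLX. With no filter the limma adjusted p was 0.353. The difference was 1.41 after row and column medians were subtracted (adjusted p 0.262), but -0.04 with the normexp correction repaired on control 1 in place of the scanner software's. For Cdh5 row 15 the level was -5.07, -3.39, -4.21 and -5.26 in controls and -5.25, -5.45, -4.03 and -4.97 in PNFLX. Control 2 was the highest and the groups overlapped, with a log2 difference of -0.44 (SE 0.46, adjusted p 0.715), and -0.079 without control 2. The spots around it deviated by a median of 0.79 on control 2.

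Of the receptors, Kdr, the main signalling receptor for vascular endothelial growth factor A, was bright and its spots were close to each other. For Kdr row 19 the log2 level was 2.45, 2.14, 1.96 and 2.29 in controls 1 to 4 and 2.06, 2.04, 2.25 and 1.97 in PNFLX 1 to 4. For Kdr row 24, with the same sequence, the level was 2.51, 2.08, 2.16 and 2.24 in controls and 2.01, 1.94, 2.11 and 1.95 in PNFLX. Control 1 was the highest at both spots and the groups overlapped at both. The log2 differences were -0.13 (SE 0.15, limma adjusted p 0.736) and -0.24 (SE 0.14, adjusted p 0.505). Averaged over both spots, which differed by at most 0.209 on any array, the difference was -0.19, with a 95% confidence interval from -0.51 to 0.13. The sign depended on the processing: with the normexp correction repaired on control 1 the spots gave 0.19 and 0.22. Before correction and scaling, mean brightness in row 19 was 2461 to 3285 in controls and 3629 to 4517 in PNFLX. In row 24 it was 2532 to 3207 in controls and 3509 to 4282 in PNFLX.

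Flt1, the second receptor for vascular endothelial growth factors, was read by 2 probes at chr12:8065567-8065626 (row 37) and in the span chr12:7954639-7971736 (row 70), both well above background on all 8 arrays. For Flt1 row 37 the log2 level was -3.88, -4.03, -4.15 and -4.08 in controls 1 to 4 and -4.12, -4.55, -3.94 and -4.65 in PNFLX 1 to 4. For Flt1 row 70 it was -4.11, -4.76, -4.60 and -4.67 in controls and -4.22, -4.67, -4.30 and -5.12 in PNFLX. In both, PNFLX 4 was the lowest sample and the groups overlapped. The log2 differences were -0.28 (SE 0.18, adjusted p 0.560) and -0.04 (SE 0.24, adjusted p 0.958), with 95% confidence intervals from -0.71 to 0.14 and from -0.59 to 0.50.

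Tek and Tie1, the angiopoietin receptor and its partner, did not pass the test. For Tek row 36, at chr5:115183802-115183861, the log2 level was -5.39, -7.45, -5.58 and -5.38 in controls 1 to 4 and -4.81, -5.47, -5.52 and -5.68 in PNFLX 1 to 4. Control 2 lay far below the other samples, the groups overlapped, and the probe passed the background flag on 2 of 4 controls and 3 of 4 PNFLX samples. The log2 difference was 0.58 (SE 0.47, limma adjusted p 0.632), and 0.08 without control 2. For Tie1 row 138, at chr5:138955489-138955548, the level was -4.48, -4.91, -4.77 and -4.36 in controls and -4.16, -4.82, -4.46 and -5.35 in PNFLX. PNFLX held both the highest and the lowest value, and the log2 difference was -0.07 (SE 0.27, adjusted p 0.928, 95% confidence interval -0.68 to 0.54).

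In the basement membrane, Col4a1, the alpha 1 chain of collagen IV, was higher in all 4 PNFLX samples than in any control but did not pass the test. Its log2 level was -0.08, 1.53, 1.42 and 1.56 in controls 1 to 4, and 1.92, 2.58, 2.28 and 2.99 in PNFLX 1 to 4. All 4 PNFLX values were above all 4 control values, and control 1 lay far below the other controls. The log2 difference was 1.33 (SE 0.40, 95% confidence interval 0.41 to 2.25), or 2.52-fold, with an unadjusted p of 0.00992 and a limma adjusted p of 0.229. Without control 1 it was 0.94 (SE 0.25, adjusted p 0.226). Over 21 alternatives it stayed between 0.94 and 1.63, with adjusted p-values from 0.0942 to 0.429; this leaves out the normexp correction that failed on control 1, which gave 1.41 (adjusted p 0.501).

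The Col4a1 spot lies in row 51, away from the first and last rows, but close to a side edge, in column 5 of 82. Of the 289 other probes within 2 rows of it, with a median difference of -0.03, 2 had a larger difference. After row and column medians were subtracted the difference was 1.41 (adjusted p 0.341), and the groups still did not overlap. Col4a2, the partner chain and not one of the 10 genes, was read by 2 spots of 1 sequence in row 60, with log2 differences of 0.02 (SE 0.13) and 0.00 (SE 0.14). The mean log2 level of these spots in controls was -3.58 and -3.46, far below that of Col4a1, at 1.11. Meningeal and fibroblast marker genes mostly differed with the same sign as Col4a1: 13 of 14 measured were higher in PNFLX, against 45.5% of all probes. Their median log2 difference was 0.28. In limma 0 passed the adjusted threshold and 2 had an unadjusted p under 0.05, against 12.5% of all probes. Other marker lists were one-sided the other way, with all 9 measured oligodendrocyte genes and all 6 measured choroid plexus genes lower in PNFLX. For choroid plexus, control 4 stood apart, so its count is not read as a shift of the group. The summed choroid plexus level was 43.2 in control 4, against 3.28, 3.57 and 4.25 in controls 1 to 3. In PNFLX it was 3.23 to 5.60. The summed level of the meningeal and fibroblast genes relative to the 75th percentile was 21.8 to 27.2 in controls and 25.4 to 55.3 in PNFLX. It was highest in PNFLX 1, the PNFLX sample in which Col4a1 was lowest. The part of these genes in the Col4a1 values was not tested.

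**Figure D4:**
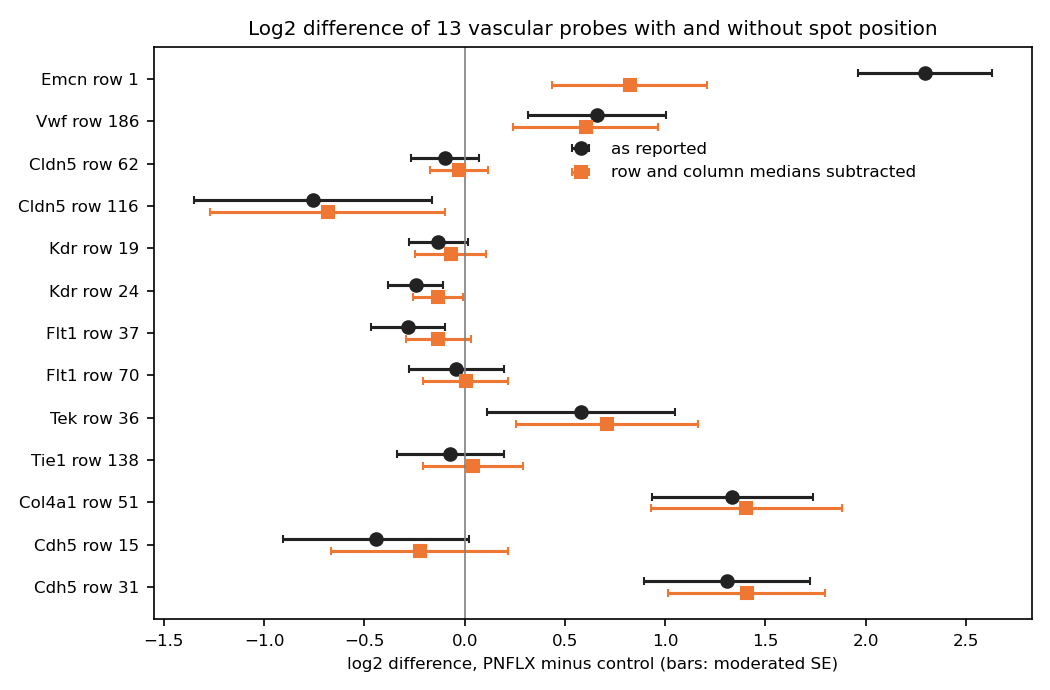
Log2 difference, PNFLX minus control (horizontal axis), of the 13 tested vascular probes with its moderated SE as a bar, as reported (circles) and after each array's row and column medians were subtracted (squares). Emcn moves from 2.30 to 0.82, while Col4a1 moves from 1.33 to 1.41 and Cdh5 row 31 from 1.31 to 1.41.

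As a description over 8 arrays that share 1 slide, log2 levels were correlated for the 78 pairs of the 13 tested probes. The highest correlation was that of Tie1 with Cldn5 row 62, at a Pearson r of 0.946. With Cldn5 row 116, the same sequence at another spot, Tie1 gave only 0.173. The Cldn5 spots correlated with each other at 0.185. Probes of other genes were closer to each of the pair, Recql5 to Cldn5 row 62 (r 0.980) and Chsy1 to Tie1 (r 0.989). The lowest correlation of the 78 was that of Col4a1 with Kdr row 24, at -0.927. The kept probes most like Col4a1 over the 8 arrays were those of Glrb (r 0.969), a glycine receptor subunit, Nudt4 (0.958) and Exosc9 (0.958), in rows 101, 46 and 90. The probes most like Vwf row 186 were those of Gpatch4 (0.964), Acadl (0.955) and Ctss (0.939), which lie in rows 188, 182 and 181, close to Vwf row 186 on the array. No endothelial gene was among these 6. The summed level of the 8 measured endothelial marker genes, relative to the 75th percentile, was 10.9 to 12.7 in controls and 9.39 to 14.4 in PNFLX. Of these genes 3 were higher and 5 lower in PNFLX. The sum is of unlogged levels and rests mostly on Cldn5 row 62 and Kdr row 19, with control means of 2.55 and 2.21 in log2. Vwf row 186 was at 0.15, and the other genes at -4.03 or below.

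Other vascular genes, taken from 4 lists that leave out the 10 genes, gave 138 measured genes, each by its brightest probe. Which cells of the whole tissue gave the signal of these genes was not tested. In limma 1 of the 138, Cldn3, passed the adjusted threshold; over the 9442 genes and unnamed probes measured in the same way 0.572% passed. In PNFLX 70 were higher and 68 lower, and the median log2 difference was 0.01, against -0.04 over the 9442. The groups did not overlap for 10 of the 138 (7.25%), against 11.03% of the 9442, and 12 (8.70%) had an unadjusted p under 0.05, against 12.7%.

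Among 51 measured endothelial and blood-brain barrier genes 24 were higher, 27 lower and 1 passed, with a median log2 difference of -0.03. Cldn3, a tight junction claudin, had log2 levels of -3.47, -3.47, -3.49 and -3.28 in controls 1 to 4 and -2.11, -2.33, -2.24 and -2.70 in PNFLX 1 to 4. All PNFLX values were above all control values, with a log2 difference of 1.08 (SE 0.16), or 2.12-fold, and a limma adjusted p of 0.0277. Like Emcn, its probe lies in the first 5 rows, in row 3, and after row and column medians were subtracted the difference was 0.31 (adjusted p 0.532). Cldn3 also lost its call without control 1, 2, 3 or 4 (adjusted p 0.0767, 0.0813, 0.102 and 0.0841) and without PNFLX 1 (0.0634) or PNFLX 2 (0.0850). The genes of next smallest p in this list did not pass. Vcam1, a leukocyte adhesion molecule read in row 191, had a log2 difference of -1.95 (SE 0.48, adjusted p 0.185) over 3 control and 3 PNFLX spots without an outlier flag, and -0.81 after row and column medians were subtracted; without PNFLX 1 it was -2.49 and past the threshold (adjusted p 0.0451). The differences were -0.53 for Icam2, another adhesion molecule, and -0.44 for Egfl7, a secreted endothelial factor. Another spot of Egfl7 with the same sequence gave 1.10, and with both averaged the difference was 0.33.

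Of 42 genes of VEGF, angiopoietin, Notch and endothelin signalling 20 were higher and 22 lower, with a median log2 difference of -0.04. In limma 0 passed. Against 12.7% of the 9442 genes and unnamed probes, 3 of the 42 had an unadjusted p under 0.05. Those of smallest p were the vasodilator peptide Adm, at 0.61 (adjusted p 0.213), Vhl, which marks hypoxia-inducible factors for degradation, at 0.45, the co-receptor Nrp1, at -0.32 with 0.26 at its other probe, and the Notch ligand Dll1, at 0.39. Without scaling between arrays Adm reached 0.91 with an adjusted p of 0.0283.

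Of 26 basement membrane genes besides Col4a1 14 were higher and 12 lower, with a median log2 difference of 0.03. In limma 0 passed and 2 had an unadjusted p under 0.05, against 12.7% of the 9442. The matrix proteins Fn1 and Nid2 had log2 differences of 0.78 (adjusted p 0.362) and 0.61 (adjusted p 0.324), and the laminin chain Lamb3 of -0.36.

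Of 19 pericyte and smooth muscle genes, whose cells share the basement membrane with the endothelium, 12 were higher and 7 lower, with a median log2 difference of 0.10. In limma 0 passed and 2 had an unadjusted p under 0.05, against 12.7% of the 9442. Mylk, the myosin light chain kinase, had a log2 difference of -0.62 (adjusted p 0.0996) and Notch3, a receptor of mural cells read in row 183, of -1.83 (SE 0.45, adjusted p 0.141). Both had no overlap between groups, which held for 11.03% of the 9442. The regulators of G protein signalling Rgs4 and Rgs5 had differences of 0.28 and 0.38. Another spot of Rgs5 with the same sequence gave -1.16, and with both averaged the difference was -0.39. The summed level of the 8 measured pericyte and smooth muscle markers was 10.4 to 11.1 in controls and 9.88 to 12.0 in PNFLX.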

How the data were processed

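Processed signals, the intensity values of the deposited scanner files, were made with Agilent Feature Extraction 10.5.1.1 with spatial and multiplicative detrending, per the file headers. They were scaled as log2 of the signal minus the 75th percentile of each array over 15207 probes. Spots flagged as outliers (521) were dropped, and a probe was kept, on its own, where 4 or more of the 8 arrays flagged it as well above background (11600 probes). PNFLX was set against control in limma 3.58.1 (R 4.3.3) with a linear model (group only, empirical Bayes, Benjamini-Hochberg adjustment, threshold 0.05). The model was tested on simulated data with independent noise and no effect of spot row or slide row, so that test does not cover position. SE is the moderated standard error and each difference is PNFLX minus control. The log2 table that the authors deposited equals these values, centred on the median of each probe, within 0.00242; its column medians were 0.06, -0.05, 0.04 and 0.04 in controls 1 to 4 and -0.04, -0.07, 0.10 and -0.13 in PNFLX 1 to 4. Gene names came from a RefSeq table (GRCr8; no coordinates taken from it), which named 14146 probes through accession, symbol or synonym; the others kept the name in the file.

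The rule named every probe of the 10 genes, from each list the genes past the threshold and then those of smallest p up to 4, and for likeness the 3 probes of highest correlation. A gene that the rule named in 1 list is not reported here. The members and lists were chosen with earlier results of these data known. Group and replicate number came from the source names. The alternatives changed the background correction, scaling, filter, outlier flags, choice of probe, spot position, replicate block and samples. Row and column medians were those of the deviations of probes from their means over the 8 arrays. The number of arrays limits the precision.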

Additional observations from a re-analysis of the deposited data

Results flagged for a closer look

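Among 30 groups of 4 values (15 probes in 2 groups) 2 held a sample whose gap to the nearest other value, divided by the range of the group, exceeded Dixon's 95% critical value; chance alone flags about 1 in 20 groups. Tek row 36 read -7.45 in control 2, where the nearest other control was -5.58. Col4a1 row 51 read -0.079 in control 1, where the nearest other control was 1.42; without control 1 its log2 difference was 0.94 in place of 1.33.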

How the results depend on the processing

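The normexp correction could not be fitted properly on control 1, where 10 spots had a local background over 10 times the median; with these replaced it was run again, an alternative chosen after seeing the data, as were averaging spots of 1 sequence and leaving out PNFLX 1 and 4 together. The slide as a block was not run, since there was 1 slide. Against 78 calls over all probes there were 143 without scaling, 50 with normexp, 493 with normexp repaired, 46 without a filter, 47 with probes well above background on all 8 arrays, 48 with 1 probe a gene, 30 after row and column medians were subtracted and 22 without PNFLX 1 and 4; leaving out 1 sample gave 33 to 104. Without the first and last 5 rows limma gave 0 calls, with 1261 probes at an unadjusted p under 0.05. With the replicate number as a block there were 13 calls, 0 of them vascular. Deviations of same-numbered samples correlated at only 0.01, 0.08, 0.09 and 0.02, none above 0.1. The numbers were therefore not taken to pair samples. Controls 2, 3 and 4 correlated best with their own number and control 1 with PNFLX 4. Same-numbered samples also share a slide column. Emcn gave 0.17 (adjusted p 0.880) with normexp, 0.88 (0.0795) with normexp repaired, 2.30 (0.0515) without a filter, 0.82 (0.473) after row and column medians were subtracted and 2.30 (0.121) with the block. Calls among vascular probes were therefore 0 in these 5 settings, and also 0 with probes on all 8 arrays and without the end rows, which do not hold Emcn; leaving out 1 sample gave 0 to 1. Calls among the other vascular genes were 2 without scaling (Adm besides Cldn3) and 4 with normexp repaired (Vcam1 and Notch3 among them), 0 with normexp, without a filter, after row and column medians, without the end rows, with the block and without PNFLX 1 and 4, and 0 to 1 when 1 sample was left out.

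Apart from the failed normexp fit, of 262 recomputed differences of vascular probes 233 kept direction and side of the threshold, 10 lost the call and 19 changed sign; of 313 for the other named genes 293, 10 and 6, with 4 newly past the threshold; the cause was not tested. Differences of opposite sign were, with normexp, -0.21 for Vwf row 186, 0.10 for Cldn5 row 62, 0.46 and 0.49 for Kdr, -0.76 for Tek, -0.76 for Cdh5 row 31, 0.45 for Egfl7, -0.75 for Vhl, -0.58 for Dll1, -0.71 for Nid2 and -0.12 for Rgs4. With normexp repaired they were -0.21 for Vwf row 186, 0.19 and 0.22 for Kdr, -0.076 for Tek, -0.036 for Cdh5 row 31, 0.22 for Egfl7, -0.18 for Vhl, 0.12 for Nrp1 and -0.13 for Nid2. Without scaling they were 0.20 for Cldn5 row 62, 0.17 and 0.053 for Kdr, 0.014 and 0.26 for Flt1 and 0.23 for Tie1. After row and column medians they were 0.0042 for Flt1 row 70 and 0.041 for Tie1. Leaving out 1 sample gave -0.19 to 0.034 for Cldn5 row 62, -0.16 to 0.14 for Flt1 row 70 and -0.25 to 0.15 for Tie1, and leaving out PNFLX 1 and 4 gave 0.051 for Flt1 row 70. With spots of 1 sequence averaged Egfl7 gave 0.33 and Rgs5 -0.39. Signals near background limit Pecam1, Vwf row 93, Tek, both Cdh5 probes and Emcn in controls.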
